A study of Mus musculus with 6 samples.

Results

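The CCN genes encode secreted matricellular proteins, which sit in the extracellular matrix and modulate how cells respond to it. Expression of 5 of them, Ccn1 to Ccn5, was compared between mouse carotid body and adrenal medulla on Affymetrix arrays. The carotid body is the chemoreceptor at the carotid bifurcation, and the adrenal medulla is the catecholamine-secreting core of the adrenal gland. All 10 probe sets annotated to one of these genes alone were taken, for 5 of the 18193 genes on the arrays. The family was chosen from earlier results of the same carotid body and adrenal medulla comparison, in which Ccn3 stood among the largest differences. The differences of the 5 genes are therefore given as a description, with no test.

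There were 3 arrays of carotid body and 3 of adrenal medulla. Both tissues came from untreated adult C57/BL6 mice bought from Charles River, with no genetic alteration named in the labels. Each carotid body array held pooled RNA of 18 carotid bodies, and each adrenal medulla array that of 10 medullas, from 10 mice in either case. Arrays that share a cohort number, 1 to 3, are stated to come from the same cohort of animals. In such whole-organ pools, fewer cells of a type and less RNA per cell cannot be told apart.

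CCN proteins are built of cysteine-rich modules that resemble parts of insulin-like growth factor binding proteins, von Willebrand factor and thrombospondin, most with a cystine knot at the C-terminus. They act outside the cell through integrins, heparan sulphate proteoglycans and LRP receptors, and they bind growth factors of the TGF-beta, BMP and VEGF families. Ccn1 and Ccn2 are quickly induced genes that respond to YAP and TAZ, to serum response factor and to TGF-beta. In vessels and connective tissue the family is known for roles in vessel growth, scarring and restraint of smooth muscle growth.

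Carotid body had more RNA of 3 of the 5 genes. Ccn3 was 78.0-fold higher, Ccn2 2.92-fold and Ccn1 2.20-fold, each by its brightest probe set, with no overlap between the arrays of the tissues. The Ccn3 fold is set against a dim adrenal medulla value and depends on the floor of the arrays. This count of 3 in 5 genes with all carotid body arrays above all adrenal medulla arrays stands beside 17.8% of all genes. Ccn4 was 1.40-fold lower in carotid body with arrays apart, which held for 26.1% of all genes in that direction, and Ccn5 was 1.18-fold lower with overlapping arrays. The median difference of the 5 genes was 1.14 on the log2 scale, against -0.04 for all genes. Over probe sets, 6 of the 10 were at least 2-fold higher with arrays apart, as were 6.06% of all probe sets, and 0 were 2-fold lower.

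**Figure D1:**
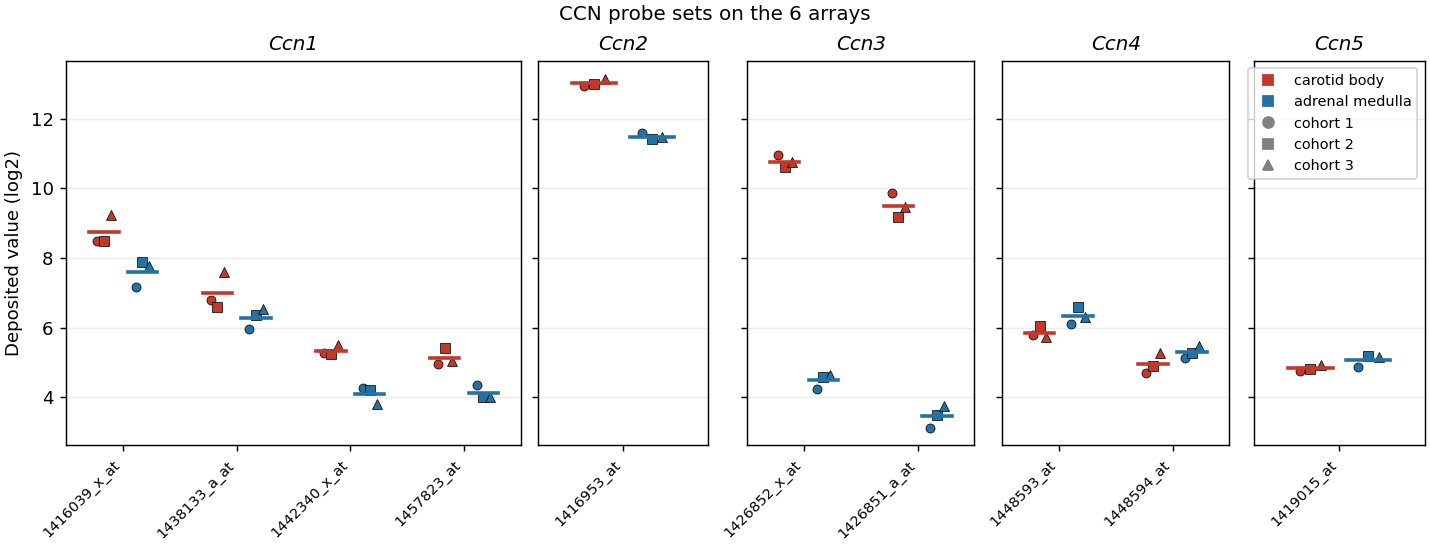
Deposited log2 value (y axis) of each CCN probe set (x axis) on the 3 carotid body arrays (red, left) and the 3 adrenal medulla arrays (blue, right), with symbols for the cohort and a line at each tissue mean. The carotid body arrays of both Ccn3 probe sets lie at 9.17 to 10.95, above all adrenal medulla arrays at 3.11 to 4.64, while those of Ccn5 overlap.

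**Figure D2:**
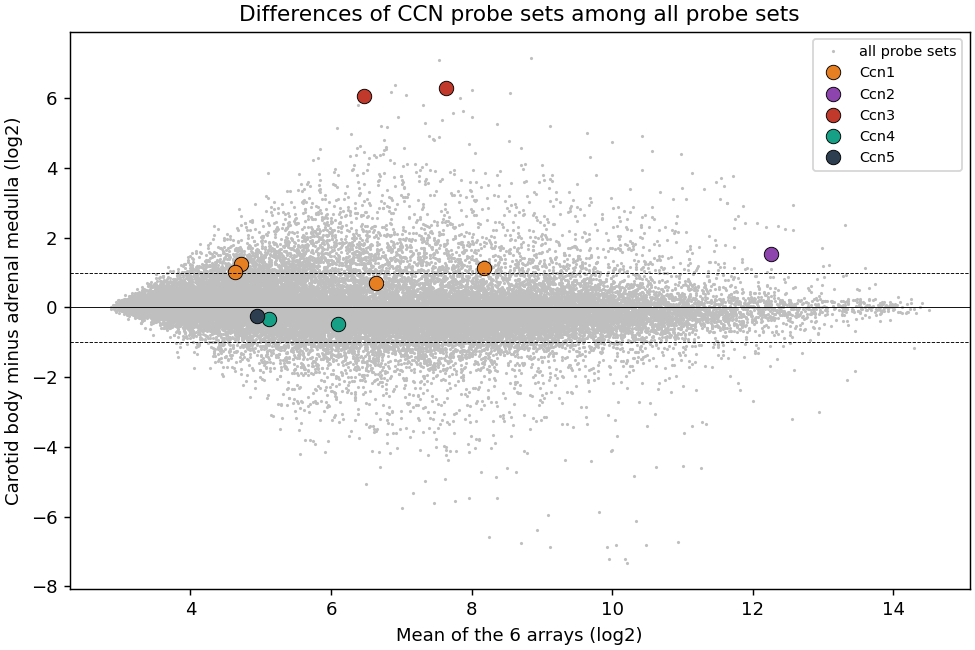
Difference of carotid body minus adrenal medulla (y axis, log2) against the mean of the 6 arrays (x axis, log2) for every probe set (grey) and for the CCN probe sets (coloured by gene), with dashed lines at 2-fold. Both Ccn3 probe sets lie at the upper edge of the cloud, at 6.06 and 6.29, and Ccn4 and Ccn5 lie within 2-fold.

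The whole arrays set limits to these values. Correlations over probe sets were 0.978 to 0.985 within carotid body, 0.991 to 0.995 within adrenal medulla and 0.938 to 0.951 between tissues. Adrenal cortex markers, which the labelled tissues should lack, were abundant in adrenal medulla and in carotid body array 1. Their summed level (log2 of the summed linear values of 10 markers) was 14.50 in that array, 9.60 and 9.43 in carotid body arrays 2 and 3, and 15.84 to 16.28 in adrenal medulla. The brightest Xist probe set read 8.84 to 10.96 in carotid body against 4.45 to 5.60 in adrenal medulla, and the labels do not give the sex of the animals. Those ranges lie apart, so same-numbered arrays of the tissues also differed in Xist. A shared cohort number therefore need not mean the same mice. The part of this difference in the CCN values was not tested. Tyrosine hydroxylase, Th, read 11.42 to 11.89 in carotid body against 12.97 to 13.83 in adrenal medulla. Of 9 catecholamine cell markers 7 were lower in carotid body, and Ddc, at 0.81, was not called. Pnmt and Dbh had the largest differences, at -4.62 and -3.41. Pnmt read 11.13 in carotid body array 1, against 7.65 and 8.08 in carotid body arrays 2 and 3. Of 5 glomus cell markers 4 were higher and 1 was lower, the potassium channel gene Kcnk3 at -1.64. The glomus cell receptor gene Olfr78, the largest of them, read 11.18 to 11.90 in carotid body against 4.96 to 5.89 in adrenal medulla.

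Ccn1, once called Cyr61, encodes a protein that promotes adhesion and growth of vessels and is needed for vascular development in mouse embryos. Its brightest probe set, 1416039_x_at, read 8.50, 8.50 and 9.23 in carotid body arrays 1, 2 and 3, against 7.17, 7.88 and 7.77 in adrenal medulla (log2). The lowest carotid body array lay 0.62 above the highest adrenal medulla array, less than the carotid body range, 0.73, or the adrenal medulla range, 0.72. The difference was 1.14 ± 0.26 (log2, SE, n = 3 each). Leaving out carotid body array 3, adrenal medulla array 1 or cohort 3 gave 0.90, 0.92 and 0.98, all under 2-fold. The other 3 Ccn1 probe sets differed by 0.71, 1.24 and 1.01, so all 4 lay higher in carotid body and 3 of them by at least 2-fold.

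The 2 brighter and the 2 dimmer Ccn1 probe sets did not vary alike among the adrenal medulla pools. Probe set 1438133_a_at read 6.80, 6.59 and 7.60 in carotid body, against 5.95, 6.37 and 6.54 in adrenal medulla. Like the brightest one, it was highest in carotid body array 3 and lowest in adrenal medulla array 1. Probe set 1442340_x_at read 5.26, 5.24 and 5.50 in carotid body, against 4.27, 4.19 and 3.81 in adrenal medulla. In carotid body it was highest in array 3, like the 2 brighter ones. Probe set 1457823_at read 4.94, 5.41 and 5.05 in carotid body, against 4.36, 4.01 and 4.01 in adrenal medulla, so that carotid body array 2 was the highest. Those 2 probe sets, both taken from the same sequence record, were dim, between the 21.2nd and 35.7th percentile of the array in adrenal medulla, and had their highest adrenal medulla value in array 1. The names ending in _x_at mark probe sets that may share probes with other sequences.

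The brightest Ccn1 probe set varied among pools of 1 tissue more than most probe sets of like brightness. The SD of 1416039_x_at was 0.42 in carotid body, against 0.38 in adrenal medulla, against carotid body and adrenal medulla medians of 0.23 and 0.16 over the 4320 probe sets with a mean within 0.5 log2 units of it. The SD lay at the 84.7th percentile of those probe sets in carotid body and at the 92.4th in adrenal medulla. Set against probe sets of their own brightness, 1438133_a_at lay at the 86.8th and 79.1st, 1442340_x_at at the 30.4th and 83.6th, and 1457823_at at the 62.7th and 73.6th percentile in carotid body and adrenal medulla, so 1442340_x_at varied less than most in carotid body. Within cohorts 1, 2 and 3 the tissue difference was 1.34, 0.62 and 1.46. The 3' minus 5' difference of the Gapdh control probe sets, a sign of RNA quality, was 1.45, 1.04 and 0.59 in carotid body, against 0.51, 0.13 and 0.61 in adrenal medulla. Its part in the spread of Ccn1 was not tested.

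**Figure D3:**
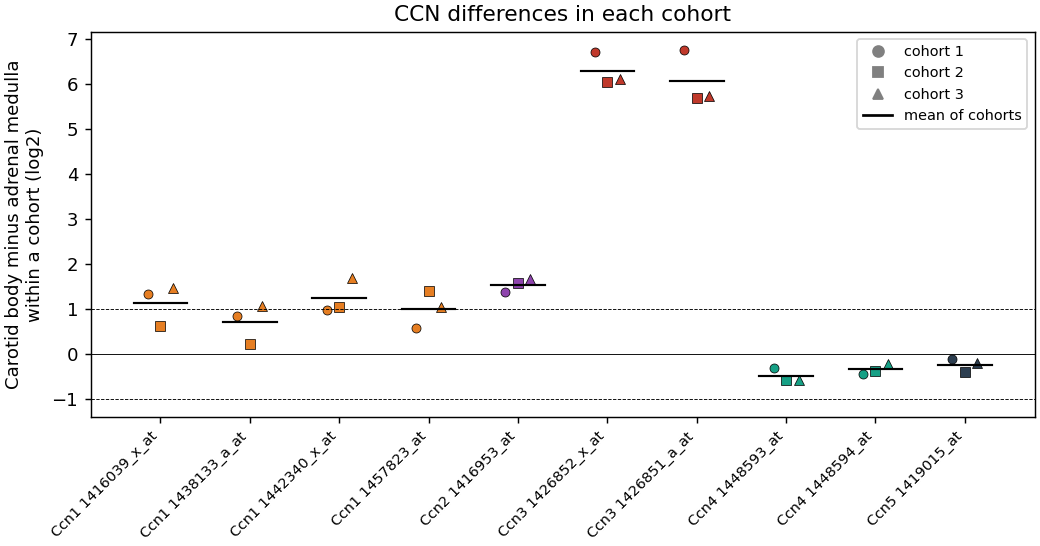
Carotid body minus adrenal medulla within cohorts 1, 2 and 3 (y axis, log2; circle, square and triangle) for each CCN probe set (x axis), with a line at the mean and dashed lines at 2-fold. Values of Ccn1, Ccn2 and Ccn3 lie above 0 in each cohort and those of Ccn4 and Ccn5 below 0. The share of all probe sets with the same sign in every cohort was not counted. Cohort 2 gave the smallest difference for 2 of the 4 Ccn1 probe sets.

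The Ccn1 promoter is shown because no other promoter of the 5 genes was matched. Ccn1 and Ccn2 are both known targets of TEAD factors, the DNA-binding partners of YAP and TAZ. The part of these factors in the tissue differences was not tested. Among the 5 genes a promoter was matched for 1, from RefSeq on GRCm38.p6, at chr3:145649936-145650235 on the minus strand, covering 250 bases before the start and 50 after it. Capitals mark the motifs found.
Ccn1 promoter: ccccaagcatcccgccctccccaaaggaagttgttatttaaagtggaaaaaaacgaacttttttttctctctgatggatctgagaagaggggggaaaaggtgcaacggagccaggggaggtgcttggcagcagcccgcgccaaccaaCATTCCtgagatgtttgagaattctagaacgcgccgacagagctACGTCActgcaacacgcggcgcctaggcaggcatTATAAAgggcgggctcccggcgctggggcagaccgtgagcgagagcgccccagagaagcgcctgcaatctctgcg

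Motifs were searched on both strands. The TEAD motif GGAATG was found as CATTCC at -103 to -98 from the start, and 14.7% of the 32851 promoters of the same length hold it. The cyclic AMP response core TGACGT was found as ACGTCA at -59 to -54, against 7.51% of all promoters, and the TATA box TATAAA at -25 to -20, against 13.6%. The AP-1 motif TGANTCA, held by 7.81% of promoters, was not among these letters. The 3 matches do not overlap each other. A match describes the letters and is not evidence of binding.

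Ccn2, known as connective tissue growth factor or Ctgf, drives matrix production by fibroblasts and is needed for skeletal growth. Its only probe set, 1416953_at, read 12.96, 12.99 and 13.16 in carotid body, against 11.58, 11.41 and 11.49 in adrenal medulla. It lay among the brightest 1% of probe sets in carotid body, at the 99.5th to 99.6th percentile of the array, and at the 97.7th to 98.0th in adrenal medulla. All carotid body arrays stood above all adrenal medulla arrays, with a gap of 1.38, several times the carotid body range, 0.20, and the adrenal medulla range, 0.17. The difference was 1.54 ± 0.12 (log2, SE, n = 3 each), and 1.38, 1.58 and 1.67 within cohorts 1, 2 and 3. The SD was 0.11 in carotid body and 0.08 in adrenal medulla, at the 30.8th and 27.0th percentile of the 419 probe sets of like brightness, so Ccn2 varied less among pools than most of them.

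Ccn3, once called Nov, encodes a member known for restraining growth of vascular smooth muscle and other cells, and for binding Notch1. Probe set 1426852_x_at read 10.95, 10.61 and 10.76 in carotid body, against 4.24, 4.57 and 4.64 in adrenal medulla. Probe set 1426851_a_at read 9.87, 9.17 and 9.47 in carotid body, against 3.11, 3.49 and 3.74 in adrenal medulla. The tissues were far apart on both, and on both carotid body array 1 was the highest and adrenal medulla array 1 the lowest. The differences were 6.29 ± 0.15 and 6.06 ± 0.22 (log2, SE, n = 3 each).

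In adrenal medulla both Ccn3 probe sets were dim. The brighter one stood at the 33.0th to 41.9th percentile of the array and the other at the 1.21st to 18.6th. In carotid body they stood at the 95.8th to 96.7th and the 88.5th to 92.8th. The values carry no detection calls, so dim Ccn3 RNA in adrenal medulla cannot be told from none, and the fold is compressed near the bottom of the scale. The adrenal medulla arrays, where cortex markers were abundant, had Ccn3 in this dim range. Without carotid body array 1, which held cortex markers, the difference was 6.20. Within cohorts 1, 2 and 3 it was 6.70, 6.04 and 6.11. The part of cortex tissue in these differences was not tested.

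Ccn4 and Ccn5 were dimmer and differed little. Ccn4, once called Wisp1, encodes a Wnt-induced protein of bone-forming and fibroblastic cells. Its brighter probe set, 1448593_at, read 5.79, 6.03 and 5.73 in carotid body, against 6.11, 6.60 and 6.30 in adrenal medulla, a difference of -0.49 ± 0.16 (log2, SE). The gap between the tissues was 0.08, less than the carotid body range, 0.30, or the adrenal medulla range, 0.50. Its other probe set, 1448594_at, read 4.70, 4.90 and 5.26 in carotid body, against 5.13, 5.27 and 5.48 in adrenal medulla, and there the arrays overlapped. The difference of that probe set was -0.34 ± 0.17.

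Ccn5, once called Wisp2, encodes a protein that lacks the C-terminal cystine knot module of the other members and restrains smooth muscle growth. Its probe set 1419015_at read 4.76, 4.80 and 4.93 in carotid body, against 4.87, 5.19 and 5.14 in adrenal medulla. Adrenal medulla array 1 lay below carotid body array 3, so the tissues overlapped. The difference was -0.24 ± 0.13 (log2, SE). Ccn5 stood at the 41.2nd to 50.3rd percentile of the arrays, at or below the middle of all probe sets. Centring each array on its median, which moves all differences by -0.11, gave -0.60 for Ccn4 and -0.35 for Ccn5.

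The sixth family member, Ccn6, is outside the 5 genes. It read 3.65, 3.85 and 3.63 in carotid body, against 3.58, 3.46 and 3.52 in adrenal medulla, all below the lower quartile of the arrays. Its difference was 0.19 ± 0.11 (SE; limma adjusted p = 0.301).

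By brightest probe set, the genes whose values over the 6 arrays were most like each member were found by the root mean square difference after centring each gene, among 5164 genes that span at least 1 log2 unit. No correlation is given, since the arrays fall into 2 tissues. For Ccn3 they were Scara3, a scavenger receptor gene, at 0.125, the mesodermal transcription factor gene Meox2 at 0.196 and Coch, a gene of inner ear matrix, at 0.226. Scara3 averaged 9.94 in carotid body, against 3.77 in adrenal medulla, a difference of 6.18. For Ccn2 they were Osbpl8, Fgd5 and Itpripl2, at 0.074, 0.076 and 0.079. Fgd5, known in endothelial cells, averaged 9.35 in carotid body, against 7.84 in adrenal medulla.

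Ccn1 had Igf2, Pcdhb10 and Fut4 as its nearest genes, at 0.113, 0.131 and 0.136. Igf2, the insulin-like growth factor gene, read 10.31, 10.42 and 10.87 in carotid body, against 8.96, 9.75 and 9.38 in adrenal medulla. It was highest in carotid body array 3 and lowest in adrenal medulla array 1. That order is no separate finding, since Igf2 was picked for its likeness to Ccn1 over these arrays. For Ccn4 the nearest were Parp3, Plppr2 and Hand1, at 0.088 to 0.094, and for Ccn5 they were Scg5, F8a and Zfp9, at 0.182 to 0.185. Ccn4 itself read 5.73 to 6.60 and Ccn5 4.76 to 5.19, each spanning less than the 1 log2 unit asked of candidates. Flatter genes, which may lie nearer to them, were not compared.

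The remaining results are tests on genes outside the family, fitted with limma over all 45037 probe sets and read by each gene's brightest one. Being called means that a gene differed by 2-fold or more with an adjusted p under 0.05. That rule put 5.91% of all genes higher in carotid body, against 6.08% lower. Those shares do not apply to counts at an unadjusted p under 0.05 in limma. For such counts no share of all genes is given, so they cannot be set against the background. Lists were chosen with earlier results known, so their counts describe the surroundings of the CCN genes.

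Among 14 receptors and co-receptors that CCN proteins are known to bind, 1 was higher in carotid body and 0 were lower. At an unadjusted p under 0.05 in limma, 7 were higher and 2 lower. The one called was Notch1, which Ccn3 binds, which averaged 9.41 ± 0.18 in carotid body, against 8.17 ± 0.08 in adrenal medulla (SD, n = 3 each). The difference was 1.24 ± 0.13 (SE, adjusted p = 0.000641), and the other Notch1 probe set gave 0.61. Lrp1, at 0.75 (adjusted p = 0.0118), was not called by its brightest probe set, but its other probe set, at 1.64, was called higher. The 9 integrin subunit genes ranged from -0.83 for Itgb5 to 0.93 for Itga6, named here after their values were seen, and 0 were called. Without adrenal medulla array 1, without cohort 1, and with array weights, the receptors called higher were 2. The median difference of the list was 0.30.

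Of 19 other matricellular proteins, 9 were higher in carotid body and 2 lower, with a median difference of 0.86. Comp, a cartilage and tendon matrix protein of the thrombospondin family, differed by 2.88 ± 0.26 (SE; adjusted p = 0.000322). Thbs2, an inhibitor of vessel growth, differed by 2.47 and Postn, periostin of fibrous connective tissue, by 2.30 (adjusted p = 3.16e-05 and 0.000327). Tnr, a tenascin of nervous tissue, was lower in carotid body, at 5.09, 4.02 and 3.26 against 7.04, 6.97 and 7.00 in adrenal medulla (difference -2.88, adjusted p = 0.00221). Without cohort 2 the adjusted p of Tnr was 0.0626, and 1 gene was called lower.

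The Hippo list holds YAP and TAZ, their DNA-binding partners and the kinases that restrain them. Of 15 genes measured, 5 lay higher in carotid body and 0 lower (8 and 0 at an unadjusted p under 0.05 in limma). Wwtr1, the gene of TAZ, differed by 1.72 ± 0.12 (SE; adjusted p = 0.000103), with all 3 of its probe sets called higher. Vgll3, a TEAD cofactor, differed by 1.72 and the kinase gene Lats2 by 1.31 (adjusted p = 0.000977 and 0.00155). The 6 probe sets of Lats2, 1 of them called, ranged from -0.44 to 1.31. Yap1, the gene of YAP, was called at 1.02, but its other probe set gave -0.31. The 4 probe sets of Nf2, 1 of them called lower, ranged from -1.06 to 0.18. Tead2 read 6.41, 6.55 and 7.80 in carotid body, where array 3 stood out, and 5.51, 5.53 and 5.47 in adrenal medulla (difference 1.42, adjusted p = 0.0204). Its adjusted p was 0.0559 to 0.121 without any 1 adrenal medulla array or without cohort 2. Only 3 genes were called higher when carotid body array 3, adrenal medulla array 2, adrenal medulla array 3, cohort 2 or cohort 3 was left out, or when a gene's probe sets were averaged.

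YAP and TAZ target genes other than Ccn1 and Ccn2 numbered 20, of which 8 were higher in carotid body and 1 was lower, with a median difference of 0.56. Averaging a gene's probe sets gave 4 higher and 0 lower. Of the 8, Lats2 is also in the Hippo list and Tgfb2 in the TGF-beta list. Ccdc80, a secreted matrix protein, differed by 3.81 ± 0.22 (SE; adjusted p = 5.53e-05). Igfbp3, a carrier of insulin-like growth factors, differed by 3.10 and F3, tissue factor, by 2.05 (adjusted p = 1.73e-05 and 0.000301). Nt5e, an ectonucleotidase, was the gene lower in carotid body, at -1.92 ± 0.28 (SE, adjusted p = 0.00258). Differences of its 3 probe sets spanned -1.92 to 0.09. Ankrd1 and Amotl2, also targets of the list and named after their values were seen, were not called. Ankrd1 was dim in both tissues, at 3.52 to 3.81 in carotid body, against 3.46 to 3.57 in adrenal medulla, and Amotl2 differed by -0.60 (adjusted p = 0.0571).

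Of serum response factor and its coactivators, 1 of 4 was called. Myocd, the coactivator of smooth muscle, differed by 2.31 ± 0.14 (SE; adjusted p = 6.39e-05), with its other probe set at 0.05. In the TGF-beta list 2 of 12 genes were higher, the ligand gene Tgfb2 at 1.88 and the endothelial receptor gene Acvrl1 at 1.57 (adjusted p = 0.00022 and 0.000811), and 0 were lower. At an unadjusted p under 0.05 in limma, 7 were higher and 1 was lower. Leaving out carotid body array 1 gave 4 higher and 1 lower, and leaving out adrenal medulla array 1, adrenal medulla array 3 or cohort 1 also gave 1 lower. After quantile normalization 4 were higher.

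Immediate-early genes, the rapid-response class to which Ccn1 belongs, went both ways, with 3 of 18 higher in carotid body and 7 lower. Egr3 differed by 2.28 (limma adjusted p = 0.00299) and Klf4 by 2.12 (3.21e-05), while Fosl2 differed by -2.18 and Myc by -1.70 (0.000988). The other probe set of Egr3 gave 0.08 and that of Fosl2 -0.11, neither of them called. That of Klf4 gave 2.0 and was called. Fosl2 read 11.07, 8.81 and 8.86 in carotid body against 11.77, 11.79 and 11.72 in adrenal medulla, and its adjusted p of 0.0251 became 0.0519 to 0.23 when carotid body array 2 or 3, any 1 adrenal medulla array, or cohort 2 or 3 was left out. It was 0.0632 when variances were modelled robustly on intensity. The mean level of the list was 8.47, 8.22 and 8.38 in carotid body arrays 1 to 3 and 8.45, 8.70 and 8.53 in adrenal medulla. Genes called lower numbered 4 without carotid body array 2 or 3 or cohort 3, and 2 without cohort 2.

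**Figure D4:**
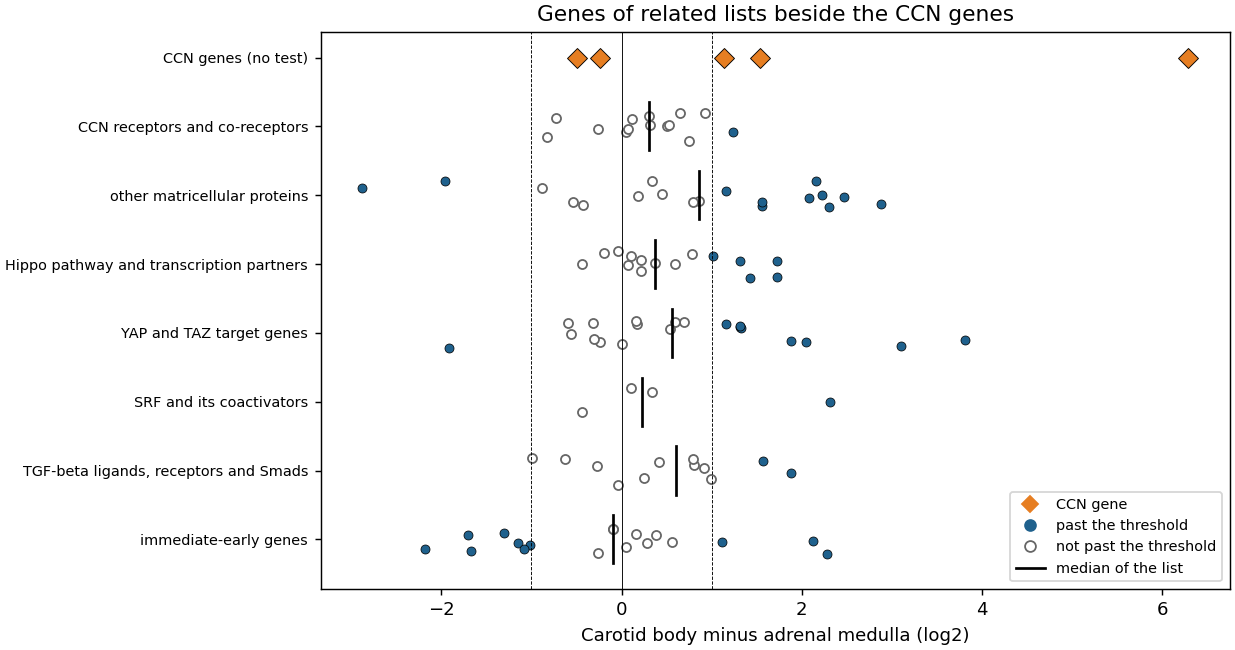
Carotid body minus adrenal medulla (x axis, log2) for the 5 CCN genes (orange diamonds, not tested) and for the genes of 7 related lists (rows), filled where past an adjusted p of 0.05 and 2-fold, with a bar at each list's median and dashed lines at 2-fold. Ccn3, whose large difference was known when the family was chosen, lies at 6.29, and the highest gene of these lists is Ccdc80 at 3.81.

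Markers of fibroblasts, smooth muscle and Schwann cells were mostly higher in carotid body, where Ccn1, Ccn2 and Ccn3 were higher, while most endothelial markers were not called. All 10 fibroblast and matrix markers were higher in carotid body, with a summed level (log2) of 15.61 to 15.83 in carotid body, against 12.79 to 13.12 in adrenal medulla, and Mfap5 and Pi16 differed by 5.47 and 3.89. Smooth muscle and pericyte markers were higher for 9 of 10, with sums of 14.34 to 14.51 in carotid body against 11.95 to 12.17 in adrenal medulla, and Myh11 and Acta2 differed by 3.85 and 3.84. Of 10 endothelial markers 3 were higher, with sums of 12.56 to 12.82 in carotid body against 11.67 to 11.99 in adrenal medulla, and a median difference of 0.56. Cldn5 differed by 3.97, Vwf by 2.41 and Cdh5 by 1.28. The lowest probe set of a gene gave 3.87 for Mfap5, 0.51 for Pi16, 0.92 for Myh11, 0.2 for Acta2 and 0.0 for Cdh5. Pecam1 at 0.88 and Flt1 at 0.79 were under 2-fold and not called (limma adjusted p = 0.0109 and 0.0158). Of the 4 Flt1 probe sets 2 were called higher. Kdr, Egfl7, Tek and Tie1, at 0.33, 0.31, 0.12 and 0.11, and Emcn, at -0.51, were not called either. Of 7 Schwann and glia markers 6 were higher, with sums of 13.63 to 13.72 in carotid body against 11.72 to 11.76 in adrenal medulla, led by Mbp at 3.39 and S100b at 2.50. The values carry no detection calls, so a dim marker cannot be told from an absent one. The part of these cells in the CCN differences was not tested.

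Of 5 macrophage and lymphocyte markers 2 were higher in carotid body, Mrc1 at 1.66 and Csf1r at 1.48, with sums of 11.89 to 12.02 in carotid body, against 10.62 to 10.93 in adrenal medulla. Of 5 cartilage and bone markers 1 was lower in carotid body, Acan at -1.61, and Col2a1 differed by 0.51, with sums of 6.81 to 7.10 in carotid body, against 7.02 to 7.94 in adrenal medulla. Of 6 skeletal muscle markers 1 was lower, Myl1 at -1.83, with sums of 7.38 to 7.65 in carotid body, against 8.19 to 8.40 in adrenal medulla. Tnnt3 went the other way, at 0.76, and was not called.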

How the data were processed

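The authors deposited log2 values, 1 for each probe set on each array. Per the submitters' processing notes they were made with Affymetrix Expression Console, with version and algorithm not given in the sources used here. The log2 scale was read from the range of the values. Nothing further was normalized. Of 45101 probe sets, 64 controls were left out. Per the 2016 platform annotation, 34945 probe sets had 1 symbol, 932 several and 9160 none. Of the first, 34741 matched by gene ID to RefSeq genes of GRCm38.p6, used for names alone; list genes without such a probe set are not analysed here.

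Differences come from limma 3.58.1 under R 4.3.3 (lmFit, eBayes, 2 groups, two-sided, Benjamini-Hochberg over all probe sets), checked on simulated data. The number of arrays limits the precision. Members and lists were chosen with earlier results of these data known. Named genes were the 4 largest called differences of a list, or its 2 brightest genes, and 3 nearest genes per member. For most cell types the 2 markers with the largest absolute difference were named. Other genes were named after their values were seen. The pairing rests on the stated cohorts; deviations from tissue means correlated at 0.22, 0.08 and 0.16 in same-numbered arrays and -0.21 to 0.10 in others. The alternatives were the cohort block, 2 normalizations, other variances, array weights, a filter on dim probe sets, the mean of a gene's probe sets, and leaving out arrays or cohorts.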

Additional observations from a re-analysis of the deposited data

How the results depend on the processing

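The number of arrays and the dim end of the scale limit what can be told, most of all for Ccn3 in adrenal medulla, Ccn4 and Ccn5. The 5 CCN differences kept their sign in every alternative run. Ccn3 passed the filter on dim probe sets only through carotid body. Leaving out arrays or cohorts gave 0.90 to 1.40 for Ccn1, 1.48 to 1.63 for Ccn2, 6.08 to 6.41 for Ccn3, -0.60 to -0.35 for Ccn4 and -0.33 to -0.16 for Ccn5. With arrays centred on their medians Ccn2 was 1.43, and called probe sets numbered 2288 higher and 2690 lower, 46.0% higher, against 2680 and 2064, 56.5%; 1 TGF-beta gene was then lower, by construction of the shift. With the cohort as a replicate block the counts were 2737 and 2108, and no call named here changed. Leaving out arrays or cohorts, the counts ranged from 1626 to 3025 higher and 952 to 2499 lower, both lowest without cohort 2. Those ranges were 1 to 2 for receptors higher, 8 to 11 and 1 to 3 for matricellular genes higher and lower, 3 to 5 for Hippo genes higher, 7 to 8 for YAP and TAZ targets higher, 2 to 4 and 0 to 1 for TGF-beta genes, and 2 to 3 and 2 to 6 for immediate-early genes. With array weights 2 receptors were higher, and after quantile normalization 4 TGF-beta genes were. With the mean of a gene's probe sets, 1 matricellular gene was lower, 3 Hippo genes and 4 targets were higher and 0 targets lower, and Lats2 was 0.20. Where no cause is given, the cause was not tested.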
